A study of Mus musculus with 6 samples.

Results

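Transcript levels of 10 genes of intestinal fat absorption were compared between pups with experimental necrotizing enterocolitis (NEC, an inflammatory bowel injury of newborns) and dam-fed controls. The genes were chosen by name, as proteins that bind, take up, activate, re-esterify or store dietary fatty acids, and all 10 were found by symbol among the 54446 gene identifiers of the count table and passed the low-count filter that left 19176 genes for testing. The NEC group held 3 RNA sequencing libraries of intestine from wild-type (WT) mice. Over 96 h these pups received 40 µl of 33% Esbilac formula by gavage at intervals of 4 h. At intervals of 12 h they also breathed 99.9% nitrogen for 100 s, followed by 10 min at 4 °C. The control group held 3 libraries of intestine from WT mice that stayed with the dam over the same 96 h, with neither hypoxia nor cold. The sources used here do not give strain, sex, age or segment of intestine. They also do not say that each library is its own animal, and the spread that enters the p-values may then be technical in part. Diet, hypoxia and cold differed between the groups together and cannot be told apart.

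Dietary triglyceride is split in the gut lumen into fatty acids and monoacylglycerol, which enter the absorptive enterocyte at its brush border. Inside the cell, small binding proteins carry the fatty acids, acyl-CoA synthetases activate them, and acyltransferases join them to monoacylglycerol and then diacylglycerol to rebuild triglyceride, which leaves in chylomicrons or rests in cytoplasmic lipid droplets. Suckling pups live on milk that is rich in fat, so this pathway is a major activity of their small intestine.

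The libraries held between 69441184 and 106304239 counts, and the 10 genes had between 1284 and 468769 counts each in a library. Low counts fell on multiples of 4 more often than on the values beside them, by a factor of 1.94, and whether the totals overstate the fragments sequenced was not tested. Control 1 and control 2 held Xist at 179 and 344 CPM (the count scaled to a common library size), against at most 1.17 CPM in the other 4 libraries. Control 1 also held the Y-linked gene Ddx3y at 19.8 CPM, against 1.29 CPM in control 2. Ddx3y stood at 25.6, 44.8 and 35.1 CPM in NEC 1 to 3 and at 30.9 CPM in control 3. Sex-linked transcripts were thus not balanced between the groups, and the part of sex in the results was not tested. NEC 1 and control 3, whose sample codes begin with AG181028, held the hepatocyte gene Alb at 21.8 and 25.9 CPM, against at most 0.201 CPM in the 4 libraries whose codes begin with AG181017. The epithelial markers, with Epcam and Krt8 the highest, summed to 6755 to 8704 CPM in NEC and 7235 to 8015 CPM in control libraries. Of the enterocyte genes, Alpi, a brush border alkaline phosphatase, had 977 to 3248 CPM in NEC and 1251 to 3699 CPM in control libraries. Lct, the lactase gene of suckling enterocytes, had 747, 376 and 667 CPM in NEC 1 to 3 and 2476, 1462 and 2951 CPM in control 1 to 3. NEC was the lower group without overlap for Lct (log2 fold change -1.94, SE 0.39, with an edgeR adjusted p of 0.0761) and for the glucose transporter gene Slc5a1 (-0.53, SE 0.30, with an edgeR adjusted p of 0.441), and neither passed the test. The part of these enterocyte genes in the results on the 10 genes was not tested.

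None of the 10 genes passed the edgeR quasi-likelihood test at an adjusted p below 0.05, where 0.704% of all genes tested passed. At an unadjusted p below 0.05 there were 4 of the 10, namely Fabp1, Acsl5, Mogat2 and Plin2, where 15.6% of all genes tested lay below that value, and all 4 had negative fold changes. DESeq2 called 1 of the 10, Acsl5, with lower levels in NEC (adjusted p = 0.0186), where it called 7.54% of all genes, and limma-voom called 0, where it called 0.787%. Without control 1, which held both Xist and Ddx3y, edgeR called 0 of all genes tested, so its count of 0 of the 10 says nothing particular to them. The median log2 fold change of the members was -0.42 there. Over the 10 genes 7 log2 fold changes (NEC minus control) were negative and 3 positive, against 48.1% negative and 51.9% positive over all genes tested, with a median of -0.43, while the median over all genes tested was 0.026. The groups did not overlap for 4 of the 10, as for 22.4% of all genes tested. NEC was the lower group for 3 of them, Acsl5, Mogat2 and Plin2 (11.6% of all genes tested), and the higher group for 1, Dgat1 (10.8%). Together the 10 genes took 0.891%, 0.901% and 1.28% of the counts in NEC 1 to 3 and 1.52%, 1.14% and 1.41% in control 1 to 3, so the lowest control share lay below the highest NEC share.

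**Figure D1:**
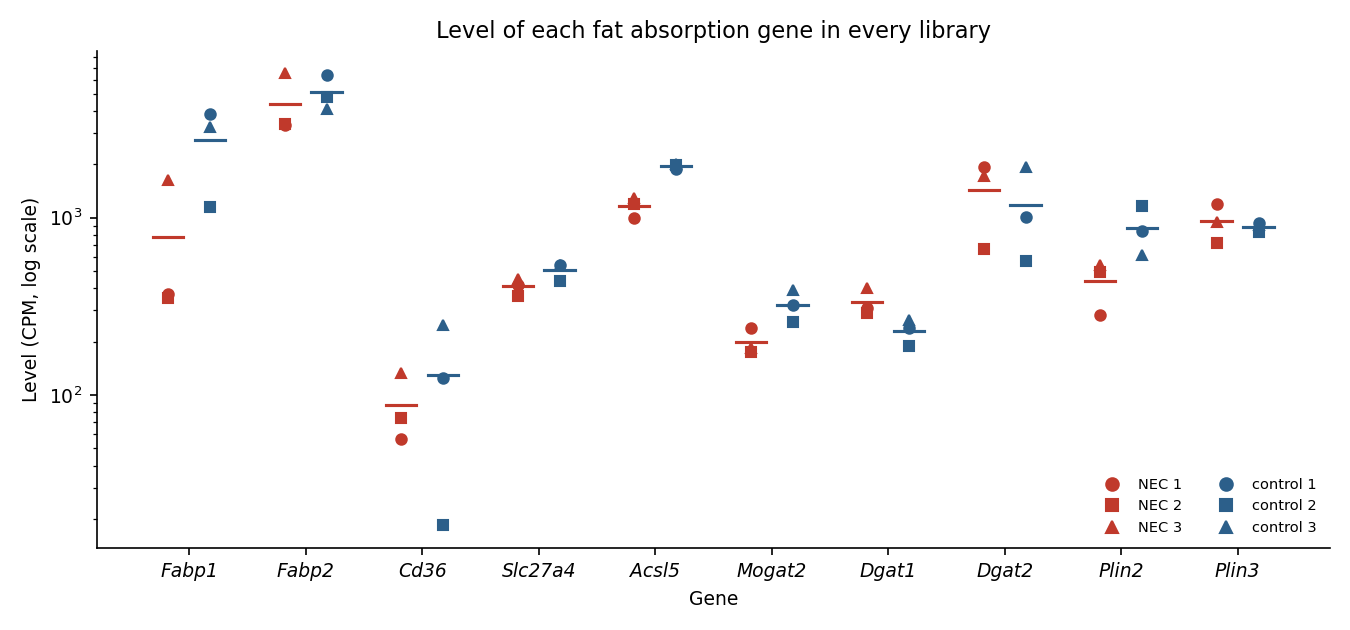
Level in CPM on a log axis of each of the 10 genes in every library, with NEC (red) left of control (blue); symbols mark the replicate and short lines the group mean. The NEC and control points separate for Acsl5, Mogat2, Plin2 and Dgat1 and overlap for the other 6 genes.

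**Figure D2:**
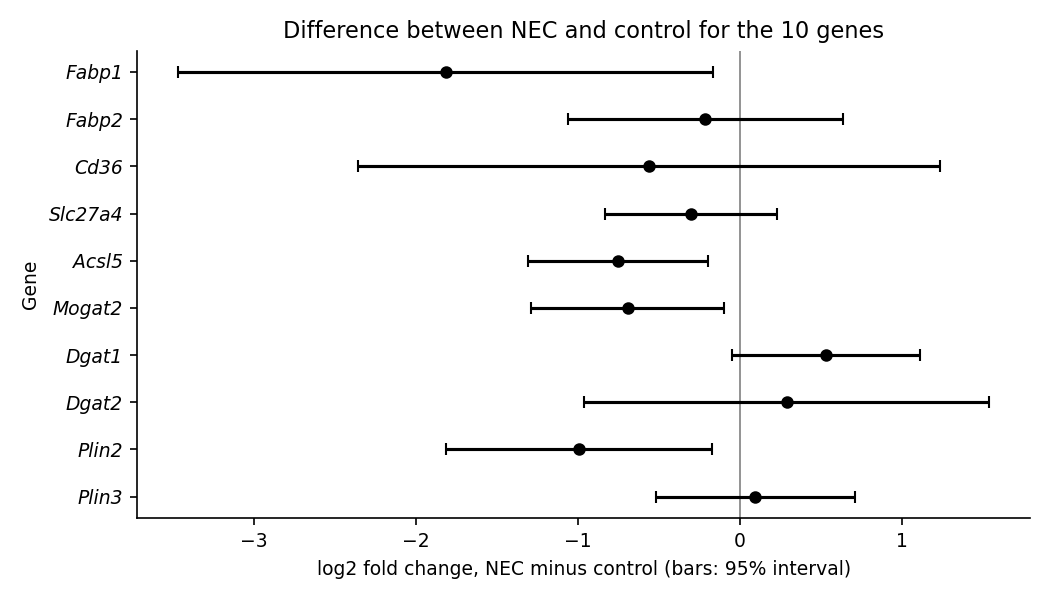
Log2 fold change of each gene, NEC minus control, with its 95% confidence interval from the edgeR fit. Intervals of Fabp1, Acsl5, Mogat2 and Plin2 lie below 0 before adjustment over all genes, and the interval of Fabp1 is among the widest.

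The cytosolic carriers were the most abundant of the 10 genes per length. Fabp1 (liver-type fatty acid binding protein, ENSMUSG00000054422, mm10 chr6:71199827-71205023, plus strand) binds long-chain fatty acids and other lipids in enterocytes and hepatocytes. It had 372, 352 and 1621 CPM in NEC 1 to 3 and 3849.7, 1148 and 3259 CPM in control 1 to 3. NEC 1 and NEC 2 lay far below all controls, while NEC 3 exceeded control 2, so the groups overlapped. Its log2 fold change of -1.82 (SE 0.71, 95% confidence interval, CI, -3.47 to -0.16) was the largest in size of the 10 and did not pass the edgeR test (adjusted p = 0.278). Fabp2 (intestinal-type fatty acid binding protein, ENSMUSG00000023057, chr3:122895072-122899506, plus strand) is confined largely to enterocytes. It had 3315, 3372 and 6506 CPM in NEC 1 to 3 and 6388, 4795 and 4105 CPM in control 1 to 3. NEC 3 was the highest library of all, and the log2 fold change was -0.21 (SE 0.37, 95% CI -1.06 to 0.64, edgeR adjusted p = 0.842). It was -0.60 without NEC 3 and -0.02 without control 1.

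For each ratio of a gene pair, here and below, 0.5 CPM was first added to both genes. Within a library, Fabp1 then had 0.112, 0.105 and 0.249 times the CPM of Fabp2 in NEC 1 to 3. In control 1 to 3 it had 0.603, 0.240 and 0.794 times. Only NEC 3 and control 2 overlapped in this ratio, which at these levels hardly depends on how a library is scaled. The log2 ratio averaged -2.80 ± 0.70 in NEC and -1.04 ± 0.91 in control (SD, n = 3 each), a difference of -1.76 (two-sided exact permutation p = 0.2, adjusted p = 0.4 over 6 gene pairs). With 3 libraries against 3 the smallest p this test can give is 0.1.

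Sequence before the start site is shown for these binding protein genes, whose ratio had the largest difference in size of the 6 pairs, and for Acsl5 and Plin2, which were lower in every NEC library. RefSeq promoters of GRCm38.p6, the assembly that mm10 follows, matched 7 of the 10 genes, and Mogat2, Dgat1 and Dgat2 were not among them. The 250 bases before the start site were searched on both strands for TATAAA, for the nuclear receptor half-site AGGTCA and its direct repeat with 1 base of any kind between the copies (each repeat match also holds the half-site), for the hepatocyte nuclear factor motifs CAAAGTCCA and GTTAAT, and for the GATA motif AGATAA. Bases that GENCODE places in the first exon are not shown, which cut 52 bases from the Fabp1 window and 1 from that of Plin2. Matches are in capitals, written 5′ to 3′ on the strand of the gene, so that a half-site on the opposite strand reads TGACCT.
Fabp1 (chr6:71199629-71199826, plus strand): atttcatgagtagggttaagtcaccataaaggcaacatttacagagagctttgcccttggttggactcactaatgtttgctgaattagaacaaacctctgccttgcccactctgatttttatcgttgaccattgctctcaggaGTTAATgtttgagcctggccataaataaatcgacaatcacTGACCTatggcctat
Fabp2 (chr3:122894822-122895071, plus strand): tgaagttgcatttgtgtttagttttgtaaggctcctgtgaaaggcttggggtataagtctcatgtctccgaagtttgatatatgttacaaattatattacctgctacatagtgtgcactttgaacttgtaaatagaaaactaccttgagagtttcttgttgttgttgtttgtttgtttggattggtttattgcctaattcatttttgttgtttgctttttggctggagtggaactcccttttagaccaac
Acsl5 (chr19:55253119-55253368, plus strand): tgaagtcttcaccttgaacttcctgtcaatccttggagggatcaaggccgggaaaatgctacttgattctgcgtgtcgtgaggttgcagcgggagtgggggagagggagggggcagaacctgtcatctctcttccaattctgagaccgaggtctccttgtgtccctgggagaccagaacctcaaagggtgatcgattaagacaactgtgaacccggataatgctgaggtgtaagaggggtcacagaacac
Plin2 (chr4:86670061-86670309, minus strand): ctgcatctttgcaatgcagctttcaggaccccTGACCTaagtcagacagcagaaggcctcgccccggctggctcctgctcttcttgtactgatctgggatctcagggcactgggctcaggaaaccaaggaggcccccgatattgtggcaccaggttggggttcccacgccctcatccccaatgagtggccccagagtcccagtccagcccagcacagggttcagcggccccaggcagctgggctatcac
The Fabp1 window held TATAAA at -30, GTTAAT at -107 and AGGTCA in reverse at -67 and -9, counted back from the start site to the first base of each match, and the matches at -30 and -9 lie in the bases not shown. None of the 6 motifs occurred in the Fabp2 or Acsl5 window. Of the 7 windows, 3 held AGGTCA, namely Fabp1, Cd36 and Plin2, as did 14.0% of 32841 promoters of the same length. TATAAA and GTTAAT occurred in 1 of the 7 each, the Fabp1 window, against 12.4% and 6.43% of all promoters. The direct repeat, CAAAGTCCA and AGATAA occurred in 0 of the 7, against 0.0335%, 0.384% and 9.99% of all promoters.

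The libraries ranked for Fabp1 much as for several markers of the proximal small intestine, where this gene is known to be highest. Gata4, a transcription factor gene of duodenum and jejunum, had 63.9, 28.2 and 81.1 CPM in NEC 1 to 3 and 104, 41.8 and 145 CPM in control 1 to 3, with control 2 the lowest control for both genes. All 6 proximal markers tested had negative fold changes with a median of -1.08, and none passed the edgeR test. Their levels summed to 2103, 1983 and 3797 CPM in NEC 1 to 3 and to 5622, 3436 and 5952 CPM in control 1 to 3, with Rbp2 and Slc40a1 the highest and Pdx1 too low to test. The stretch of intestine behind each library is not stated, and the part of these markers in the Fabp1 values was not tested. Hepatocyte markers, which could also bring Fabp1 transcripts, summed to 50.1 to 76.6 CPM in NEC and 56.6 to 405 CPM in control libraries, with Serpina1b the highest in NEC and Serpina1a in control, and their part was not tested either. The log2 fold change of Fabp1 was -1.37 in the 4 AG181017 libraries alone and -2.92 without NEC 3. Alb was near 0 in the AG181017 libraries, but the hepatocyte markers summed there to 275 CPM in control 1 and 56.6 CPM in control 2. In NEC 2 and NEC 3 they summed to 50.1 and 76.6 CPM. NEC 1, which held Alb, had a sum of 54.5 CPM, so the sum of these markers did not follow Alb.

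**Figure D3:**
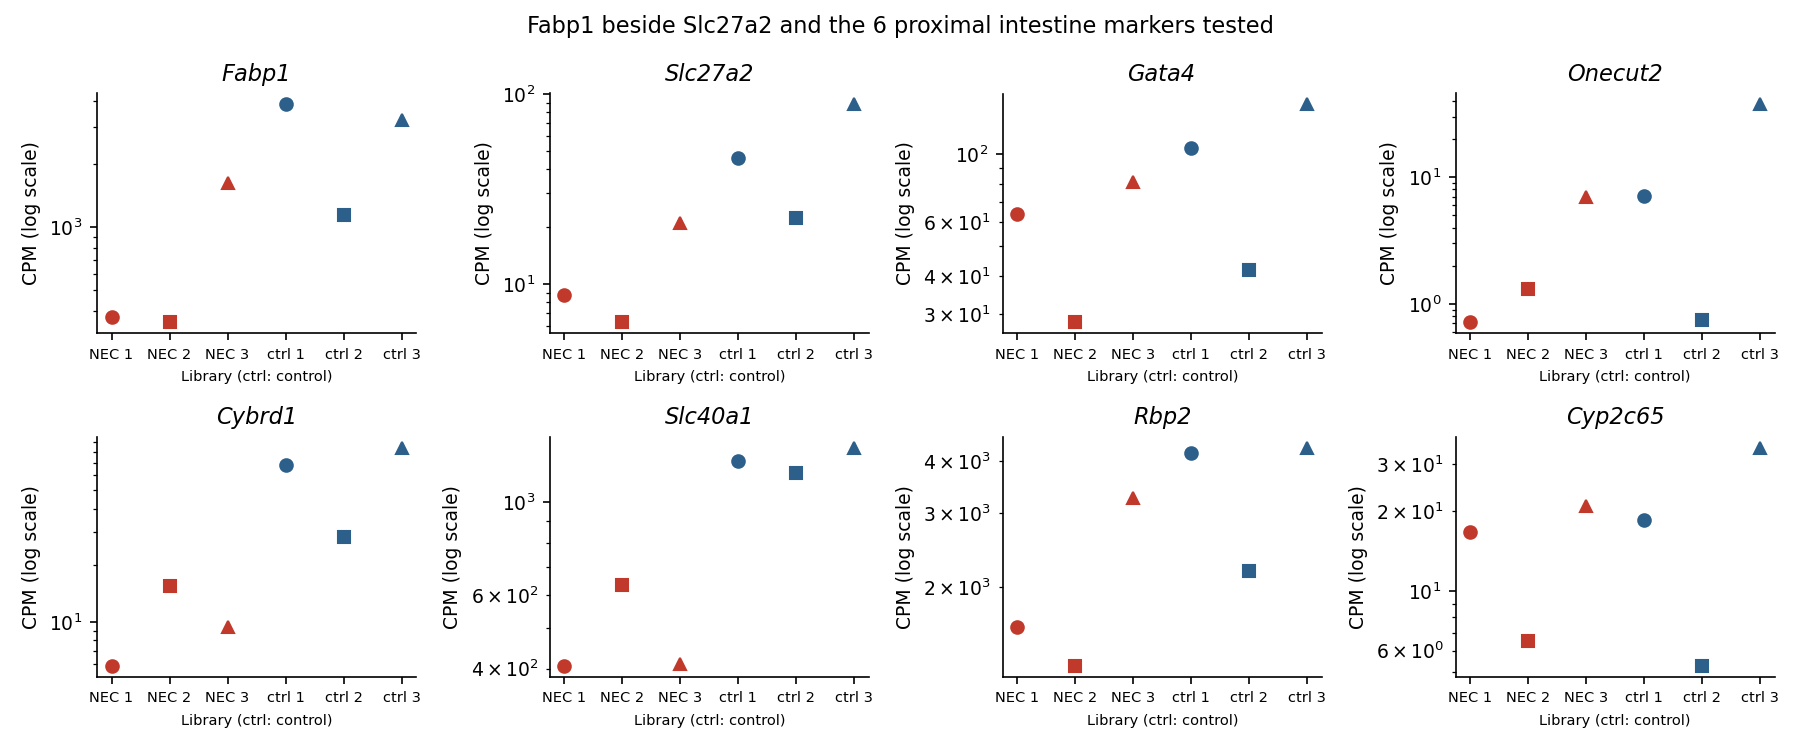
Level in CPM (log axes) of Fabp1, of the fatty acid transporter gene Slc27a2 and of the 6 proximal intestine markers tested, in NEC 1 to 3 and then control 1 to 3. NEC 3 is the highest NEC library for every gene shown except Cybrd1 and Slc40a1, and control 2 is the lowest control library for all 8 genes.

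Of the membrane proteins of fatty acid uptake, neither passed the test. Cd36 (ENSMUSG00000002944, chr5:17781690-17888801, minus strand), a scavenger receptor that binds long-chain fatty acids, was the least abundant of the 10 genes. It had 56.5, 74.7 and 134 CPM in NEC 1 to 3 and 125, 18.4 and 247 CPM in control 1 to 3. The control libraries spanned 13.4-fold, the widest range of any of the 10 genes in a group, and enclosed all NEC libraries. The log2 fold change was -0.56 (SE 0.77, 95% CI -2.35 to 1.23, edgeR adjusted p = 0.790). It was 0.29 without control 3, -1.08 without control 2, and 0.52 in the 4 AG181017 libraries alone, so its direction turned with the libraries used.

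Cd36 is also expressed by endothelium, adipocytes and macrophages. Blood endothelial markers, led by Pecam1 and Kdr, summed to 112 to 169 CPM in NEC and 90.6 to 181 CPM in control libraries. Of the 9 tested, 5 had positive and 4 negative fold changes, with a median of 0.12. Gpihbp1 among them, which anchors lipoprotein lipase, rose by 1.96 on the log2 scale (SE 0.31, edgeR adjusted p = 0.0428). Macrophage and monocyte markers summed to 220 to 317 CPM in NEC and 324 to 407 CPM in control libraries, and much of that sum was Csf1r, which had 105 to 149 CPM in NEC and 245 to 319 CPM in control libraries (log2 fold change -1.10). Of the 10 markers 7 had positive fold changes, among them Cd68 at 1.31, with no overlap of the groups, and C1qc at 0.73. The median was 0.60, and none of the 10 passed the edgeR test. The adipocyte genes Adipoq, Lep, Plin1, Cfd and Retn were too low to test, and Adipoq had 8 counts in NEC 3 and 0 in the other libraries. The part of endothelial and macrophage markers in the Cd36 values was not tested.

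Slc27a4 (fatty acid transport protein 4, ENSMUSG00000059316, chr2:29802634-29817522, plus strand) is the main member of its family in enterocytes and also has acyl-CoA synthetase activity. It had 418, 364 and 451 CPM in NEC 1 to 3 and 538, 439.6 and 538 CPM in control 1 to 3. The highest NEC library lay just above the lowest control library, and the log2 fold change was -0.30 (SE 0.23, 95% CI -0.83 to 0.23, edgeR adjusted p = 0.592). Cd36 had 0.136 to 0.297 times the CPM of Slc27a4 in NEC and 0.0431 to 0.460 times in control libraries (difference of log2 ratios 0.29, two-sided exact permutation p = 0.9, adjusted p = 0.9), and this difference was -0.69 without control 2 and 1.02 without control 3.

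Acsl5, the acyl-CoA synthetase that activates long-chain fatty acids in enterocytes, had the smallest unadjusted p of the 10 genes. The gene (ENSMUSG00000024981, chr19:55251938-55297720, plus strand) had 1001, 1187 and 1282 CPM in NEC 1 to 3 and 1869, 1983 and 1998 CPM in control 1 to 3. The control libraries lay within 1.07-fold of each other and the highest NEC library stayed clearly below them. NEC averaged 1157 ± 143 CPM and control 1950 ± 70.8 CPM (SD, n = 3 each), with a log2 fold change of -0.75 (SE 0.24, 95% CI -1.31 to -0.20, edgeR adjusted p = 0.198). Leaving out 1 library moved it between -0.83 and -0.66, and within the AG181017 and AG181028 libraries the differences of mean log2 CPM were -0.64 (2 NEC, 2 control) and -0.996 (1 NEC, 1 control). Exons of Acsl5 overlap those of Zdhhc6 on the opposite strand over 404 of 4864 bases, and without a stated strand setting their counts cannot be told apart.

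Acsl1, a synthetase found in many tissues, had 149, 149.8 and 61.5 CPM in NEC 1 to 3 and 192, 142 and 107 CPM in control 1 to 3. Acsl5 exceeded it 6.72 to 20.7 times in NEC and 9.72 to 18.6 times in control libraries. The difference of log2 ratios was -0.40 (two-sided exact permutation p = 0.6, adjusted p = 0.9), and it was -0.90 without NEC 3 and -0.09 without NEC 1.

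Mogat2 makes diacylglycerol from absorbed monoacylglycerol, the main route of triglyceride synthesis in the fed intestine. The gene (ENSMUSG00000052396, chr7:99219084-99238619, minus strand) had 238, 176 and 185 CPM in NEC 1 to 3 and 321, 257 and 389 CPM in control 1 to 3. The groups did not overlap, though NEC 1 and control 2 lay close together. The log2 fold change was -0.69 (SE 0.26, 95% CI -1.29 to -0.10, edgeR adjusted p = 0.255). Within the AG181017 and AG181028 libraries the differences of mean log2 CPM were -0.67 and -0.71. Exons of Mogat2 overlap those of Gm45012 on the opposite strand over 55 bases, and their counts cannot be told apart there. Gpam, a mitochondrial glycerol-3-phosphate acyltransferase of the other route of triglyceride synthesis, had 6.54, 4.05 and 2.60 CPM in NEC 1 to 3. It had 1.42, 1.93 and 3.53 CPM in control 1 to 3. Of the same route, Gpat3 averaged 95.1 CPM in NEC and 134 CPM in control (log2 fold change -0.50). Gpat4 averaged 36.8 CPM in NEC and 24.4 CPM in control (0.59). Gpam thus lay far below both, and Mogat2 was not set against them. The ratios of Mogat2 to Gpam, with 0.5 CPM added to both genes, were 33.9, 38.7 and 59.7 in NEC 1 to 3. They were 168, 106 and 96.6 in control 1 to 3, and the addition lowers them because Gpam is low. All NEC ratios lay below all control ratios, with a difference of -1.49 on the log2 scale (two-sided exact permutation p = 0.1, the smallest possible, and adjusted p = 0.4 over the 6 pairs).

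Neither of the diacylglycerol acyltransferase genes, whose products complete triglyceride, passed the test. Dgat1 (ENSMUSG00000022555, chr15:76502015-76511953, minus strand), an endoplasmic reticulum enzyme of the enterocyte, had 309, 289 and 403 CPM in NEC 1 to 3 and 239.7, 188 and 264 CPM in control 1 to 3. It was the 1 gene of the 10 that was higher in every NEC library, and its log2 fold change was 0.53 (SE 0.25, 95% CI -0.05 to 1.11, edgeR adjusted p = 0.361). Its share of the counts of the 10 genes was 3.40%, 3.76% and 2.92% in NEC 1 to 3 and 1.49%, 1.65% and 1.85% in control 1 to 3. Such a share also depends on the other members. Fabp1 took 4.09%, 4.58% and 11.8% in NEC 1 to 3 and 23.9%, 10.1% and 22.9% in control 1 to 3. Dgat2 (ENSMUSG00000030747, chr7:99153658-99182719, minus strand), an unrelated enzyme of the same reaction, had 1919, 663 and 1709 CPM in NEC 1 to 3 and 1008, 567 and 1938 CPM in control 1 to 3. Replicate 2 was the lowest library of each group, and the log2 fold change was 0.29 (SE 0.54, 95% CI -0.96 to 1.54, edgeR adjusted p = 0.859), or -0.04 without control 2 and 0.86 without control 3. Dgat2 lies 36364 bases from Mogat2 on the same strand of chromosome 7, and within each group the libraries ranked in the same order for these neighbours, though their fold changes had opposite signs. The CPM of Dgat2 was 2.29 to 6.20 times that of Dgat1 in NEC and 3.01 to 7.33 times in control libraries (difference of log2 ratios -0.21, two-sided exact permutation p = 0.8, adjusted p = 0.9), and that difference was 0.18 without NEC 2, 0.14 without control 3 and -0.54 without NEC 1.

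Plin2 and Plin3 coat lipid droplets, and Plin2 is known to be degraded when it has no droplet to bind. Plin2 (ENSMUSG00000028494, chr4:86648386-86670060, minus strand) had 283, 492 and 543 CPM in NEC 1 to 3 and 846, 1160.4 and 613 CPM in control 1 to 3. All NEC libraries lay below all control libraries, with a narrow gap between NEC 3 and control 3. NEC averaged 439.6 ± 138 CPM and control 873 ± 275 CPM (SD, n = 3 each), with a log2 fold change of -0.99 (SE 0.35, 95% CI -1.81 to -0.17, edgeR adjusted p = 0.241). Within the AG181017 and AG181028 libraries the differences of mean log2 CPM were -0.94 and -1.11. Plin3 (ENSMUSG00000024197, chr17:56277476-56292873, minus strand) had 1190.1, 723 and 945 CPM in NEC 1 to 3 and 934, 829 and 910.1 CPM in control 1 to 3. The control libraries lay inside the NEC range, with a log2 fold change of 0.096 (SE 0.27, 95% CI -0.52 to 0.71, edgeR adjusted p = 0.913), or -0.098 without NEC 1 and 0.26 without NEC 2. Plin2 had 0.238, 0.682 and 0.575 times the CPM of Plin3 in NEC 1 to 3 and 0.905, 1.40 and 0.674 times in control 1 to 3. NEC 2 and control 3 overlapped by a small margin, and the difference of log2 ratios was -1.06 (two-sided exact permutation p = 0.2, adjusted p = 0.4), or -0.60 without NEC 1.

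**Figure D4:**
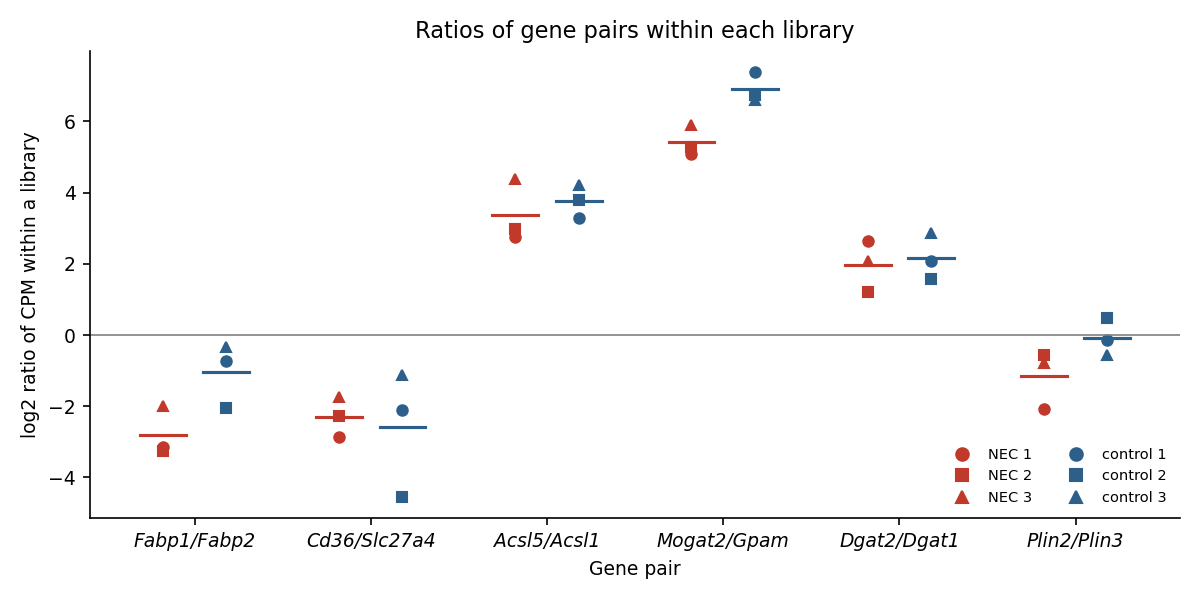
Log2 ratio of the CPM of 6 gene pairs within each library, after 0.5 CPM was added to each gene. NEC (red) is left of control (blue), and short lines are group means. Mogat2/Gpam is the 1 pair without overlap of the groups, NEC being the lower.

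Levels were ranked per length as CPM divided by the length in kilobases of the union of the GENCODE exons (FPKM). In NEC the order of the means was Fabp2 at 4557 ± 1892 FPKM, Fabp1 at 1414 ± 1315, Dgat2 at 464 ± 218, Plin3 at 252 ± 61.8, Acsl5 at 238 ± 29.4, Plin2 at 125 ± 39.3, Dgat1 at 109 ± 19.8, Mogat2 at 109 ± 18.4, Slc27a4 at 93.1 ± 9.92 and Cd36 at 24.6 ± 11.2 FPKM (SD, n = 3 each). In control it was Fabp2 at 5280.5 ± 1213 FPKM, Fabp1 at 4977 ± 2568, Acsl5 at 401 ± 14.6, Dgat2 at 379.9 ± 227, Plin2 at 249 ± 78.2, Plin3 at 235 ± 14.6, Mogat2 at 176 ± 35.8, Slc27a4 at 115 ± 12.9, Dgat1 at 75.5 ± 12.7 and Cd36 at 36.2 ± 31.9 FPKM (SD, n = 3 each). Fabp2 exceeded Fabp1 per length in 3 of 3 NEC libraries and in 1 of 3 control libraries. In NEC the neighbours Dgat2 and Plin3, Plin3 and Acsl5, Plin2 and Dgat1, Dgat1 and Mogat2, and Mogat2 and Slc27a4 had overlapping ranges. In control the ranges of Fabp2 and Fabp1, Acsl5 and Dgat2, Dgat2 and Plin2, Plin2 and Plin3, and Dgat1 and Cd36 overlapped. Mogat2 and Slc27a4 both exceeded Dgat1 in 3 of 3 control libraries, whereas Dgat1 exceeded Mogat2 in 1 of 3 NEC libraries.

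Likeness of pattern was measured as the root mean square difference of centred log2 CPM over the 6 libraries, among genes with a mean of at least 20 CPM, and is a description with no test. Nearest to the mean profile of the 10 genes were Rab24 (0.056), Srek1 (0.10), Ccnl2 (0.11), Setd3 (0.11) and Tmed4 (0.12). Nearest to Fabp1 were the very long-chain fatty acid transporter gene Slc27a2 (0.43), the neonatal Fc receptor gene Fcgrt (0.44) and the incretin hormone gene Gip (0.44), and nearest to Cd36 were Fam53b (0.46), Psmf1 (0.515) and Tubb2a (0.52). Among the 10 genes themselves the most distant pair was Cd36 and Plin2 (1.48). The closest was Slc27a4 and Plin3 (0.25), whose log2 fold changes were small and opposite in sign (-0.30 and 0.096).

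Other genes of fat handling were read from 10 lists holding 91 different genes, of which 82 were tested, and 2 of these passed the edgeR test. Fabp4, the fatty acid binding protein of adipocytes and capillary endothelium, had 83.1, 80.9 and 128 CPM in NEC 1 to 3 and 31.3, 34.9 and 27.7 CPM in control 1 to 3. It rose 3.11-fold, or 1.63 on the log2 scale (SE 0.26, edgeR adjusted p = 0.0457), and was the 1 of 7 other binding protein genes to pass, where 0.261% of all genes were called higher and 0.443% lower. The endothelial gene Gpihbp1 rose with it, as did Lyve1 of the lymphatic endothelial markers, by 2.64 on the log2 scale (SE 0.33, edgeR adjusted p = 0.0307). Without control 1 edgeR called 0 genes of all, so both of these calls were lost there. Of the 9 blood endothelial markers 5 had positive and 4 negative fold changes (median 0.12). Of the 6 lymphatic markers 5 had positive fold changes and 1, Ccl21a, a negative one (median 0.82). Those lymphatic markers, led by Lyve1 and Mmrn1, summed to 62.9 to 124 CPM in NEC and 30.5 to 32.9 CPM in control libraries, and their part in the Fabp4 values was not tested. The defining adipocyte gene Adipoq was at 0 in 5 of the 6 libraries, and fewer cells of a type and less RNA per cell cannot be told apart in bulk tissue. Aadac, a microsomal ester hydrolase of the lipase family, had 41.1, 79.8 and 53.5 CPM in NEC 1 to 3 and 266, 315 and 229 CPM in control 1 to 3. It fell 4.64-fold, a log2 fold change of -2.22 (SE 0.31, edgeR adjusted p = 0.0378), and was the 1 of 10 lipolysis genes to pass. The call of Fabp4 was lost without any 1 of the libraries (adjusted p between 0.0564 and 0.268), and that of Aadac without any 1 other than NEC 2 (between 0.0597 and 0.207).

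In the other 8 lists 0 genes passed the edgeR test, and 11 of 65 different genes (16.9%) lay below an unadjusted p of 0.05, close to the 15.6% of all genes tested. DESeq2 called 7 of the 82 genes of all 10 lists (8.54%), close to its 7.54% of all genes. Each list is given by its median log2 fold change and the genes with the smallest p. Other fatty acid transport genes (7 tested) had a median of -0.0014, with Slc27a2 at -2.13 (SE 0.61, edgeR adjusted p = 0.161, with no overlap of the groups), Scarb1 at 1.95 and Slc27a1 at -0.29. Other acyl-CoA synthetases (6 tested) had a median of 0.16, with Acsl4 at 0.70, Acsl1 at -0.29 and Acsm3 at 0.45. Acsm3 was low, with a mean of 1.07 CPM in NEC and 0.786 CPM in control. Genes of the glycerol-3-phosphate route (13 tested) had a median of -0.055, with the glycerol-3-phosphate dehydrogenase gene Gpd1 at -0.91, Gpat4 at 0.59 and Agpat3 at -0.91. Other monoacylglycerol and ester acyltransferases (5 tested) had a median of -0.62, with the cholesterol acyltransferase genes Soat1 at -0.48 and Soat2 at -0.65, and Mogat1 at -0.62. That median is the value of Mogat1, which was near the floor, with a mean of 0.466 CPM in NEC and 0.712 CPM in control. Other lipid droplet proteins (10 tested) had a median of 0.12, with Hsd17b13 at -0.81 (SE 0.22, edgeR adjusted p = 0.141), Cidea at 1.14 and Plin4 at -0.76. Cidea had a mean of 1.97 CPM in NEC and 0.891 CPM in control, and Plin4 of 1.37 and 2.33 CPM. The pancreatic-type lipases and cofactors of luminal digestion (4 tested) were all under 14 CPM, with a median of 0.79, Pnliprp1 at 1.06, Pla2g1b at 1.69 and Clps at 0.52. Many of these values moved by over 1.5 times with 1 library left out. Without control 3, Scarb1 was 3.07, Slc27a1 -0.14, Gpd1 -0.60 and Soat2 -0.39. Acsl4 was 0.41, Acsm3 -0.18, Mogat1 -1.09 and Pnliprp1 0.56 without NEC 2. Acsl1 was 0.025 and Clps 0.071 without NEC 3, Acsl1 was -0.48, Mogat1 -0.12 and Clps 0.85 without NEC 1, Plin4 was -0.46 and Pla2g1b 1.11 without control 1, and Pla2g1b was 3.47 and Acsm3 0.88 without control 2.

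Chylomicron assembly genes (10 tested) had a median of -0.21. Apob, the structural protein of chylomicrons, had 3015, 3043 and 5066 CPM in NEC 1 to 3 and 5472, 7434 and 5964 CPM in control 1 to 3, with a log2 fold change of -0.76 (SE 0.32, edgeR adjusted p = 0.309). Apoc3 stood at -1.20 and the vesicle coat gene Sar1b at 0.61, or at -1.83 and 0.38 without NEC 3. Transcription factors that respond to fat (12 tested) had a median of 0.28, with 7 positive and 5 negative fold changes. Smallest in p were the liver X receptor gene Nr1h3 at -1.08, the carbohydrate-responsive factor gene Mlxipl at -1.30 and Hnf4a at -0.57. NEC was the lower group without overlap for these 3 of the 12, as for 11.6% of all genes tested, and the higher group without overlap for 0. Mlxipl was -0.75 without control 3. Nr1h3 had 11.5, 12.3 and 12.5 CPM in NEC 1 to 3 and 27.5, 23.3 and 25.9 CPM in control 1 to 3 (SE 0.23, edgeR adjusted p = 0.0838), and DESeq2 called it (adjusted p = 0.000177). The medians of luminal digestion, chylomicron assembly and other acyltransferases kept their sign under all 19 alternatives, and the other 7 medians changed sign in at least 1, that of the transcription factors with a range of -0.29 (without NEC 1) to 0.56 (without NEC 2).

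**Figure D5:**
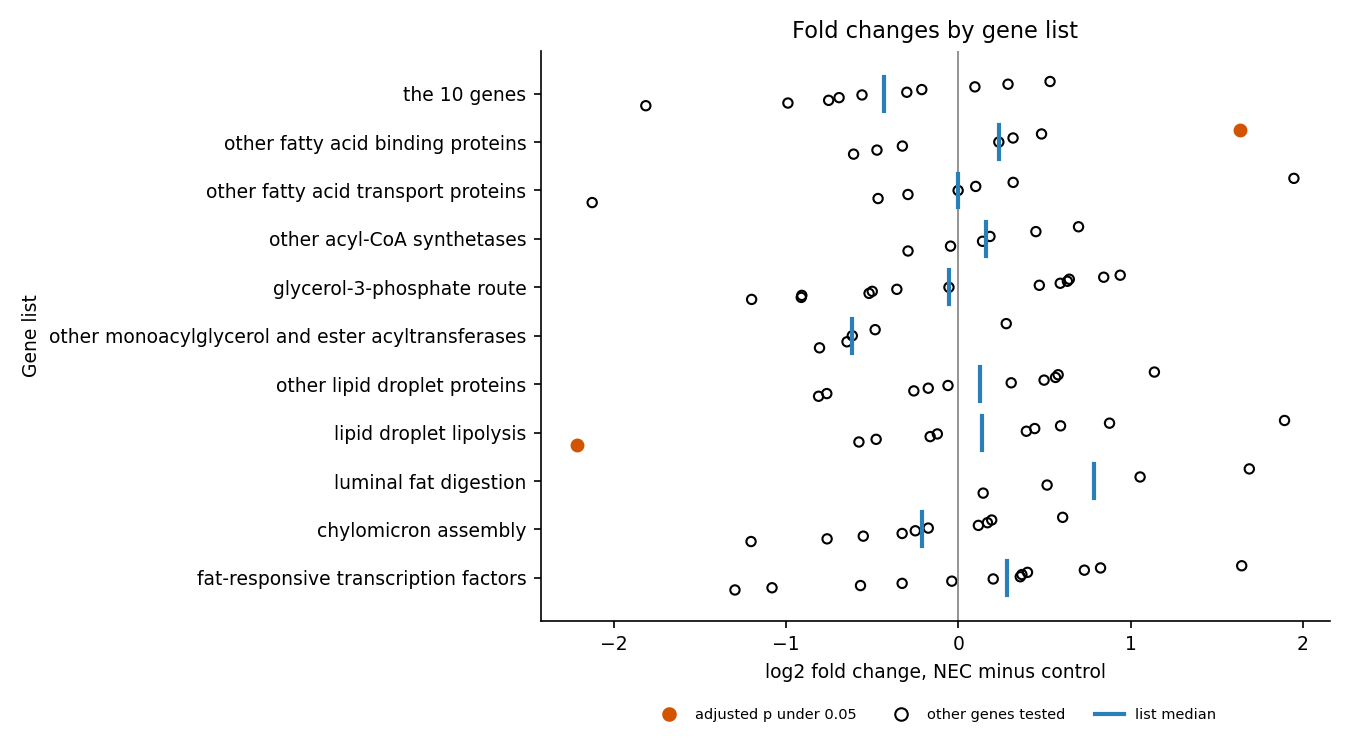
Log2 fold change, NEC minus control, of every gene tested in the 10 genes and in 10 other lists of fat handling; filled orange points passed the edgeR test, open points did not, and blue bars are list medians. The 2 filled points are Fabp4 at 1.63 and Aadac at -2.22.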

How the data were processed

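Per the labels' protocols, the RNA was isolated with TRIzol and its libraries were read as pairs on a NovaSeq. The authors deposited raw counts per gene in 1 table covering the 6 samples, and the submitters' processing notes name mm10 as the genome build. For aligner, counter, annotation and strand setting, nothing is stated in the sources used here. Gene symbols and positions came from GENCODE release M21, and 54409 of 54446 identifiers matched a symbol. The test was made in edgeR 4.0.16 (R 4.3.3). Genes were kept by filterByExpr (minimum count 10), library sizes were scaled by TMM, and the quasi-likelihood F test (robust=TRUE) set NEC against control, with Benjamini-Hochberg adjustment over 19176 genes. CPM values are TMM-scaled. Ratios of gene pairs used a pseudocount of 0.5 and a two-sided exact permutation test. The members and lists were chosen with earlier results of these data known. Named were all 10 members and, from each other pathway list, every called gene or else the 3 with the smallest p. Partner genes of the ratios and the leading or called cell type markers are named too, the markers chosen after their values were seen. The settings varied were scaling (RLE, upper quartile, library size, epithelial markers), no filter, a filter of 50 counts in 3 samples, DESeq2 1.42.0, limma-voom (limma 3.58.1), robust=FALSE, a term for replicate number or for sample code, only the AG181017 samples, each library left out, ratio pseudocounts of 2 and 0.1, and, added after seeing the data, control 1 and control 2 both left out. The fit was tested on simulated counts. No 2 libraries differed by as little as sampling noise.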

Additional observations from a re-analysis of the deposited data

How the results depend on the processing

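The count of 0 called members was kept under every alternative run except DESeq2, which called 1. Their median log2 fold change stayed negative, between -0.62 and -0.25, and that of all genes ran from -0.08 to 0.10. The count over all genes was 135 and, with each library left out in turn, had a range of 0 (without control 1) to 106 (without control 2). It was 247 with no low-count filter, 1446 by DESeq2, 54 with the replicate block, 243 with the sample code as a term, 25 in the AG181017 samples and 1 without control 1 and control 2. The 2 calls in the other lists became 1 with library-size scaling, 7 by DESeq2, 0 in the AG181017 samples, 0 without control 1 and control 2, and 0 to 1 with 1 library left out.

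Signs turned for genes with values near 0 or with wide spread. In the AG181017 samples Cd36 stood at 0.52, Plin3 at -0.11, Mogat1 at 0.13 and the log2 ratio of Acsl5 to Acsl1 at 0.14. Without control 1 and control 2, Fabp2 stood at 0.098, Dgat2 at -0.44 and Acsl1 at 0.17. Scaled to the epithelial markers, Plin3 stood at -0.045. With 1 library left out Cd36 ran from -1.08 to 0.29, Dgat2 from -0.044 to 0.86, Plin3 from -0.098 to 0.26, Acsl1 from -0.48 to 0.025, Acsm3 from -0.18 to 0.88, the log2 ratio of Cd36 to Slc27a4 from -0.69 to 1.02 and that of Dgat2 to Dgat1 from -0.54 to 0.18. The cause of these changes was not tested.

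Same-numbered NEC and control libraries had correlations of deviations of -0.14, 0.27 and -0.0070, against -0.34 to 0.36 for the other combinations. The highest, 0.36, was that of NEC 1 and control 3, the AG181028 libraries. Replicate numbers 1 and 3 each join an AG181028 with an AG181017 library. With 3 libraries in a group, these values cannot decide whether the numbers pair the samples. With the replicate block 0 members were called and their median was -0.28, Fabp4 was no longer called (adjusted p = 0.0865) and Slc27a2 was (adjusted p = 0.0452).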
